A study of Mus musculus with 4 samples.

Results

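The replication-dependent histone genes were taken as all protein-coding genes of the GENCODE vM1 annotation (mouse build mm9) whose symbol begins with Hist1h, Hist2h, Hist3h or Hist4h. This name rule gave 67 genes of 22380. Chromatin accessibility was profiled in wild-type embryos of the NMRI strain by ATAC-seq, an assay that uses a transposase to place sequencing adapters wherever chromatin is open. The libraries labelled E9.5, which the protocol places at embryonic day 9.75, came from forelimb buds with the adjoining trunk, and those labelled E10.5 came from forelimb buds, although one tissue label of the E10.5 libraries also names hindlimb buds. Each stage had 2 biological replicates, each made from the paired forelimbs of 1 embryo, and the replicates of a stage had been merged into 1 list of accessible regions. No genetic change or treatment was applied, and stage and trunk tissue cannot be told apart. The E9.5 list held 42613 regions and the E10.5 list 46765. Since each list carries 1 value per region, there is no replicate error and no test, the depth is unknown, and the intervals given are 95% Wilson intervals that cover counting error only. In pooled tissue, fewer cells with an open region and a less open region in each cell cannot be told apart.

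Replication-dependent histone genes supply the core histones H2A, H2B, H3 and H4 and the linker histone H1 that package newly copied DNA, and they are transcribed mainly in S phase. Their transcripts are not polyadenylated and end instead at a conserved stem-loop that SLBP binds, and their clusters are known to gather NPAT and the 3′ end processing factors in a nuclear structure called the histone locus body. Early limb bud mesenchyme is a strongly proliferating tissue.

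Of the 67 genes, 55 belonged to Hist1, 9 to Hist2, 2 to Hist3 and 1 to Hist4. By class there were 6 H1, 19 H2A, 18 H2B, 11 H3 and 13 H4 genes. The members of a class were close copies of one another: the 13 H4 genes encoded 1 protein, the 11 H3 genes 3 proteins, the 19 H2A genes 10 and the 18 H2B genes 12, whereas each of the 6 H1 genes encoded its own. Each gene was read by its longest annotated coding model, so a model of unusual length counts as a protein of its own. H3 models ran from 136 residues to the 181 of Hist2h3c1, and H2B models from 120 to 138. The stem-loop was searched for in the 100 bases after the stop codon as a perfect stem of 6 base pairs opening with GG around a loop of 4 bases opening with TTT. It was found in 58 of the 67 genes in 6 forms. The 3 most common forms, carried by 36, 9 and 8 genes, are shown as DNA on the coding strand with the stem in capitals and the loop in lower case, since they are the element that sets this gene group apart.
Form of 36 genes, H4 genes not among them: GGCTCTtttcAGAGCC
Form of 9 genes: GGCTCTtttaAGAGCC
Form of 8 genes, all H4: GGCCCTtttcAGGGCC

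The stretches just upstream of the starts are shown for 4 places on which the results turn, read 5′ to 3′ from build mm9 (NCBIM37). Capitals mark 4 motifs that were searched on both strands. The TATA box was searched as TATAAA, which reads as TTTATA from the other strand. The CCAAT box was searched by its own letters, which read as ATTGG from the other strand. The octamer known from H2B promoters as the site of POU2F1 was searched as ATTTGCAT, which reads as ATGCAAAT from the other strand. The core of the H4 element recognized by HINFP was searched as GGTCCG, which reads as CGGACC from the other strand. The first stretch, chr13:22127513-22127689 on the plus strand, lies between the divergent starts of Hist1h2ah and Hist1h2bk. It is under the E10.5 region of the group with the highest deposited score value. The second, chr6:136752901-136753050 on the minus strand, lies upstream of Hist4h4, and the third, chr13:23790324-23790473 on the minus strand, lies upstream of Hist1h4c. The last, chr13:24026081-24026330 on the plus strand, lies upstream of Hist1h2aa, a testis H2A gene that had no region in either list.
Between Hist1h2ah and Hist1h2bk: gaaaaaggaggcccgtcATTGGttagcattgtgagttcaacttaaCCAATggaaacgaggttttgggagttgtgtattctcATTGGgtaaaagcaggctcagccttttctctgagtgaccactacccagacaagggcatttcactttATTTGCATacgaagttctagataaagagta
Upstream of Hist4h4: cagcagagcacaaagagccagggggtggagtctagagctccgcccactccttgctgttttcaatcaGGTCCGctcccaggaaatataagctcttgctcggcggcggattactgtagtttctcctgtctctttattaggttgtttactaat
Upstream of Hist1h4c: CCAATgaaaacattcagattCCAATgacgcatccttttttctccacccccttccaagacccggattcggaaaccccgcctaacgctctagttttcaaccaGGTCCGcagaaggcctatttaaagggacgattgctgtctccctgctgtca
Upstream of Hist1h2aa: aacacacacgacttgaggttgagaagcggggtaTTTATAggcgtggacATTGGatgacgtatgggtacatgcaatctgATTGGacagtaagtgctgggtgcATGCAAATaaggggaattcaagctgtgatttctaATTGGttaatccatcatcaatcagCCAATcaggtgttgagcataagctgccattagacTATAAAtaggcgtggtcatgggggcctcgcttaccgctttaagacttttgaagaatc

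In the 300 bases from 250 before each start, the letters CCAAT stood in 57 of the 67 members (85.1%) against 37.9% of 22375 protein-coding promoters. The TATA letters stood in 38 members (56.7%, against 13.4%). The octamer stood in 15 members (22.4%, against 1.73%), of which 7 were H2A and 8 H2B genes. GGTCCG also stood in 15 members (22.4%, against 9.77%), and 12 of the 13 H4 genes were among them. The windows of divergent genes with close starts overlap, so 1 match can count for both genes. The octamer between Hist1h2ah and Hist1h2bk does so. These 2 genes also both count for the TATA letters, though none stand wholly between their starts. A match is a description of these letters and not of binding. The 15 members with the octamer included 13 with a region at both stages, and so did the 15 with GGTCCG, where 45 of the 52 members without the motif had one, in either case.

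Most histone promoters were accessible at both stages. A region was assigned to a gene when its centre lay within 2.5 kb of any annotated start. Of the 67 members, 61 had an E9.5 region (91.0%, interval 81.8 to 95.8), against 65.1% of all protein-coding genes. At E10.5 there were 58 (86.6%, interval 76.4 to 92.8), against 62.5%. All 58 also had a region at E9.5, so 58 members were open at both stages (86.6%, against 61.3% of all genes). A region at E9.5 alone was seen in 3 members and in 3.75% of all genes, and no member had a region at E10.5 alone, where 1.12% of all genes did. The remaining 6 members (8.96%, interval 4.17 to 18.2) had a region at neither stage, against 33.8% of all genes.

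By class, all 6 H1 and all 11 H3 genes had a region at both stages. Among the H2A genes, 16 of 19 had one at E9.5 and 15 at E10.5. Among the H2B genes there were 16 and 15 of 18, and among the H4 genes 12 and 11 of 13. The H2B gene Hist1h2be counts by an annotated start that lies 35168 bp from its coding sequence, under the region at Hist1h1e. The H3 gene Hist2h3c1 counts at E10.5 by an annotated start that lies 1197 bp from its coding sequence. That start stands beside the start of Hist2h2aa1, under the same region. By cluster, the 9 Hist2 genes, the 2 Hist3 genes and Hist4h4 were complete at both stages, and each member without a region at one or both stages was a Hist1 gene.

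A stricter reading asked whether the start itself lay under a region. This held for 54 members at E9.5, where 62.1% of all genes met it, and for 57 at E10.5, against 58.8%. It held for 54 members at both stages (58.2% of all genes), for none at E9.5 alone (3.96% of all genes) and for 3 at E10.5 alone (0.657% of all genes). The 10 members left, where 37.2% of all genes were left, are named below. Of the members, 39 at E9.5 and 38 at E10.5 lay wholly inside accessible regions, and in both lists the median member had 100% of its gene length covered. This share was not computed for all genes, and it depends on gene length as well as on region width. The plot of counts by class sets both readings side by side.

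**Figure D1:**
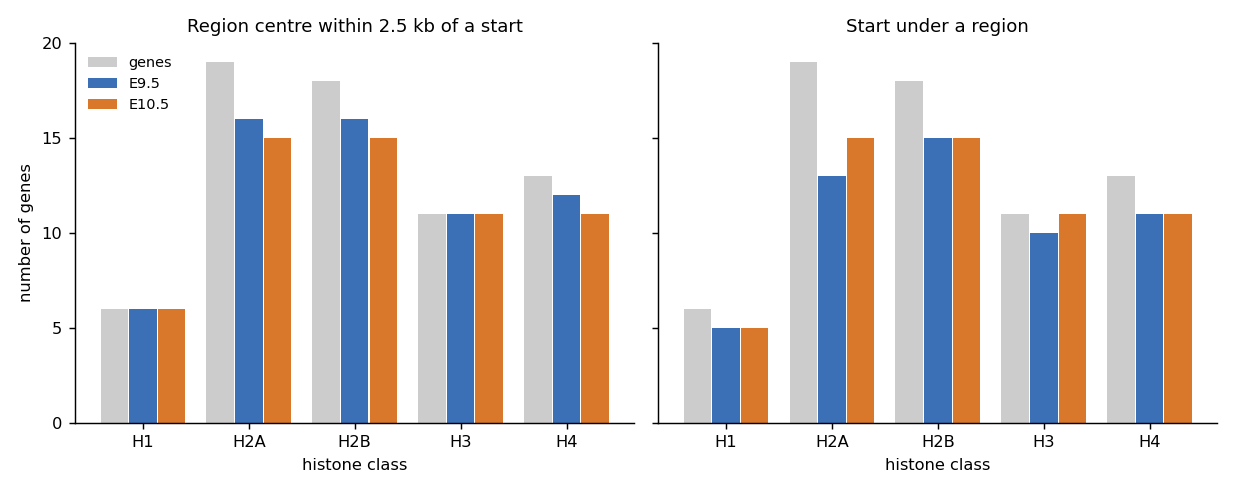
Number of histone genes of each class (grey) and how many had an accessible region at E9.5 (blue) or E10.5 (orange). The left panel counts genes with a region centre within 2.5 kb of a start and the right panel genes whose start lay under a region. H1 and H3 are complete on the left at both stages, while H2A is lowest against its total on the right at E9.5, with 13 of 19.

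The genes without an accessible start fell into 3 kinds. The first were germline histones. Hist1h2ba and Hist1h2aa, the divergent pair that encodes testis H2B and H2A, had no region within 2.5 kb in either list, and Hist1h1t, the testis linker histone, was near the region at its neighbour Hist1h4c but not under it. The centre of that region was 2372 bp from the Hist1h1t start in the E9.5 list and 2344 bp in the E10.5 list. So 0 of the 3 germline members had its start under a region. Outside the clusters, the germline histone genes H1fnt, H1foo and Hils1 had no region at either stage, and H2afb1 had 1 at E10.5 alone, with a score of 107.

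The second kind were 6 Hist1 genes in a mirrored duplication. A stretch of 10899 bp at chr13:21893137-21904035 returned on the opposite strand at chr13:21923645-21934543 with 1 mismatch (99.99% identity without gaps). Each copy holds an H2A, an H2B and an H4 gene: Hist1h2ao, Hist1h2bq and Hist1h4m in the first, and Hist1h2ap, Hist1h2br and Hist1h4n in the second. The reads had been aligned so that only those with 1 possible place were kept. Accordingly, uniqueness was measured as the share of 63-base words within 500 bp of a start that match no other place in the genome with up to 2 mismatches. It was 0% for Hist1h2ao, Hist1h2ap, Hist1h2bq and Hist1h2br and 0.106% for Hist1h4m and Hist1h4n. The word just upstream of the 2 H2A genes is shown to make this plain, each on the strand of its gene, at chr13:21902173-21902235 (plus) and chr13:21925445-21925507 (minus).
Upstream of Hist1h2ao: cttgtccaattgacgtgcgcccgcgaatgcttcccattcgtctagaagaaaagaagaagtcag
Upstream of Hist1h2ap: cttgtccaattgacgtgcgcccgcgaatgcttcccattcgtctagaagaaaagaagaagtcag

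Both words are identical, so a read from one could not be told from a read of the other and would have been dropped. The 3 genes of the first copy were those with an E9.5 region alone, and all 3 owed it to 1 region at chr13:21903875-21904474. It was 600 bp wide, scored 150.5, had no counterpart at E10.5 and lay at the outer edge of the copy, where it covered 161 bp, or 0.739% of both copies together. At E10.5 no region touched either copy. Whether these 6 promoters were open could therefore not be read from these lists.

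The last kind was Hist1h2al alone. It lies apart from the other Hist1 genes at chr13:51298057-51298434 on the minus strand, 48.2% of the words around its start were unique, and no region lay near it at either stage. Its sequence also held no stem-loop by the search used here.

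Over all members the median share of unique words was 61.9% (range 0 to 100), with a median of 93.6% upstream of the start and 25.6% downstream, where the coding sequence begins. In 1118 other protein-coding genes sampled evenly the median was 100%. Of the 9 members under 25% unique, 6 had an E9.5 region and 3 an E10.5 region. Of the 19 members between 25% and 50%, 18 had a region at each stage, and all 19 members between 50% and 75% did. The 20 members above 75% had 18, and the exceptions were Hist1h2ba at 82.3% and Hist1h2aa at 95.8%. Among the 1118 other genes a region was less frequent in the low bins as well: from the lowest bin to the highest, 3.12%, 7.41%, 11.3% and 74.6% had one at E9.5, and 1.56%, 7.41%, 15.1% and 71.3% at E10.5, of 64, 27, 53 and 974 genes. The plot of uniqueness shows these sets apart.

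**Figure D2:**
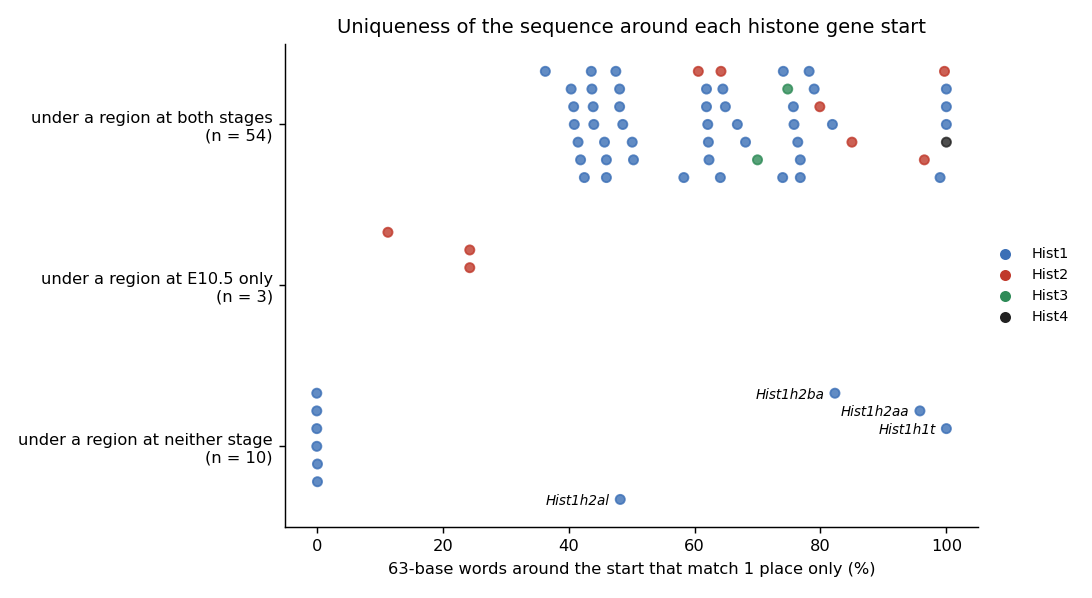
Share of 63-base words within 500 bp of each histone gene start that match 1 place in the genome (horizontal axis), with the genes split by whether the start lay under a region, 1 point per gene, coloured by cluster and spread vertically only for legibility. The 6 mirrored genes sit at about 0 in the lowest row, where the germline genes and Hist1h2al sit at 48.2% or more. The 3 genes under a region at E10.5 alone are Hist2 genes at 11.3% and 24.3%.

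Where histone promoters were listed, their regions ranked high. The score of a region is 10 times the negative log10 of a p-value. At 3100, 682 E9.5 and 355 E10.5 regions tie, while 161 and 95 score above it. The value 3100 was taken as a limit of the score. The order of regions at or above it is therefore uncertain, also in percentile. The score grows with depth as well as with signal. For this reason the percentile, the percent of a list's regions that score lower, is given beside it. At E9.5, 41 regions lay at members, with a median score of 1330 and a median percentile of 85.6. The 16336 promoter-proximal regions of the list had medians of 898.9 and 77.8. At E10.5, 39 regions lay at members, with a median score of 1776 and a median percentile of 94.8. The 15389 promoter-proximal regions had medians of 638.3 and 77.1. Counted by gene, the best region of a member had a median percentile of 93.3 at E9.5 and 96.6 at E10.5, and that of any protein-coding gene 83.3 and 82.7.

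The regions at members were also wide. Their median width was 2445 bp in the earlier list and 2428 bp in the later one, and that of promoter-proximal regions was 1562 and 1376 bp. Of the 41 earlier regions, 38 shared 1 bp or more with the other list (92.7%, interval 80.6 to 97.5), as did 86.9% of promoter-proximal regions. All 39 of the later regions had such a counterpart (100%, interval 91.0 to 100), as did 94.7% of promoter-proximal regions.

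**Figure D3:**
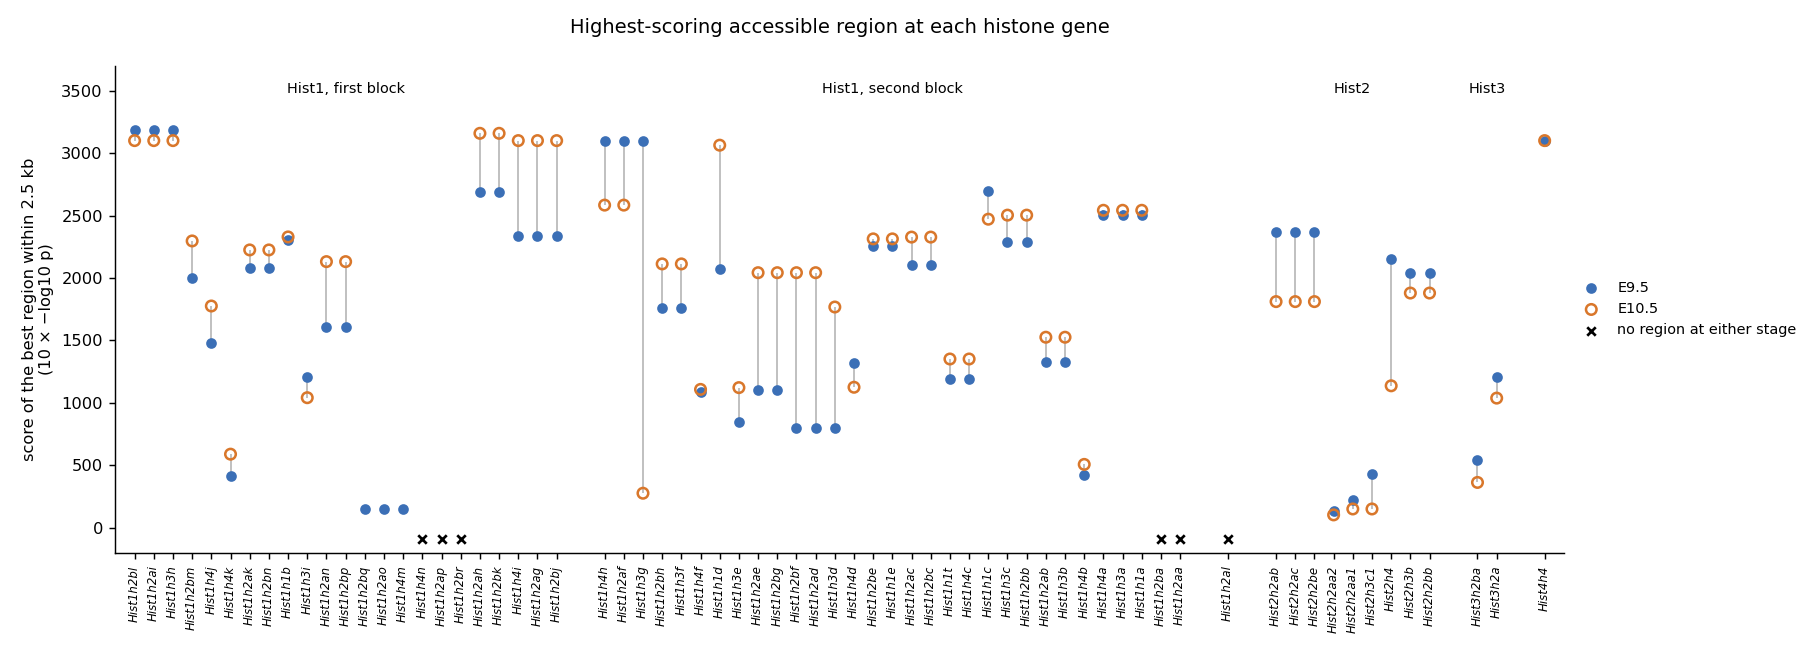
Score (10 times the negative log10 of a p-value, vertical axis) of the best region within 2.5 kb of each histone gene, in order of position within Hist1, Hist2, Hist3 and Hist4, at E9.5 (filled blue) and E10.5 (open orange), with a grey line joining the stages. Crosses mark genes with no region at either stage. In Hist1 the open circle is above the filled one for 37 of 46 genes, and in Hist2 it is below for each of the 9.

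The 6 linker histone genes, whose proteins bind DNA between nucleosomes, all ranked higher at E10.5 by their best region within 2.5 kb, but 2 of these regions, those of Hist1h1t and Hist1h1a, did not lie over the gene's start in that list. The highest E9.5 score among them was that of Hist1h1c, with 2699 at E9.5 and 2471 at E10.5. Hist1h1d was highest at E10.5, with 3063, from 2073 at E9.5, in a region of nearly equal width in both lists (2256 and 2246 bp). Its rank went from 93.5 to 99.0. Hist1h1b scored 2304 and 2329, Hist1h1e 2258 and 2313, and Hist1h1t, by way of the Hist1h4c region, 1189.6 and 1352. Hist1h1a scored 2508 and 2542 in regions it shared with Hist1h3a and Hist1h4a, but at E10.5 that region had separated and the start of Hist1h1a lay under a lesser one of 949.8.

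The H2A and H2B genes, whose products form the dimers at the flanks of the nucleosome, held the highest score values of both lists in the group. These values lie above the tied 3100, so they cannot be ordered against the members that stand at 3100, such as Hist4h4. At E9.5 the highest was 3183, at percentile 99.9, in a region of 5489 bp at chr13:21805920-21811408 over the starts of Hist1h2bl, Hist1h2ai and Hist1h3h. At E10.5 the same starts lay under a region of 3605 bp that scored 3100. The highest at E10.5 was 3158, also at percentile 99.9, in a region of 4131 bp at chr13:22125551-22129681 over Hist1h2ah and Hist1h2bk, whose shared upstream stretch is printed above. The same pair scored 2686 at E9.5. At the other end, Hist2h2aa2 had the lowest best region of any H2A gene, with 135 at E9.5 and 104 at E10.5.

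H2A and H2B genes commonly share a promoter. Within 1 kb there were 13 divergent pairs of members, 12 of them H2A with H2B and 1 H2B with H3, with starts 168 to 693 bp apart. In 10 of the 13, both starts lay under a single region at both stages. The other 3 were the mirrored pairs Hist1h2bq with Hist1h2ao and Hist1h2ap with Hist1h2br, and the testis pair Hist1h2ba with Hist1h2aa. In every pair the starts stand closer together than the median member region is wide. A region over either start will therefore often take in both, whether or not the pair shares a promoter. The same count was not made for divergent pairs of other genes.

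Among the H3 genes, Hist1h3h had the highest score value in both lists, 3183 in the E9.5 list and 3100 in the E10.5 list. Its E9.5 value cannot be ordered against the 3100 of Hist1h3g. The class ranged from 430.2 to 3183 at E9.5 and from 151 to 3100 at E10.5. The lowest values of both lists were those of Hist2h3c1, whose 5′-most start lies in a smaller mirrored stretch described with the Hist2 cluster. Its E10.5 value is that of the region at the neighbouring Hist2h2aa1 start. Among the H4 genes, all coding for the same protein, scores spanned 414 (Hist1h4k) to 3100 (Hist1h4h and Hist4h4) at E9.5 outside the mirrored copy. At E10.5 they spanned 508 (Hist1h4b) to 3100 (Hist1h4i and Hist4h4). Hist4h4, the single gene of its cluster on chromosome 6, scored 3100 in both lists in regions of 2597 and 2602 bp, whereas Hist1h4b scored 421 and 508 and Hist1h4k 414 and 590.0.

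Several starts often lay under one region, and such regions were wider. A region over several starts must at least span them, so this relation follows in part from geometry. At E9.5, 17 regions covered 1 member start, with a median width of 2256 bp, 11 covered 2 (3161 bp) and 5 covered 3 (5489 bp). At E10.5, 18 covered 1 (2227 bp), 12 covered 2 (3212 bp) and 5 covered 3 (3867 bp). No region covered more than 3. The regions over 3 starts at E9.5 took in Hist1h2bl, Hist1h2ai and Hist1h3h; Hist1h4i, Hist1h2ag and Hist1h2bj; Hist1h4h, Hist1h2af and Hist1h3g; Hist1h4a, Hist1h3a and Hist1h1a; and Hist2h2ab, Hist2h2ac and Hist2h2be. At E10.5 the Hist1h4a group was down to 2 starts, and Hist1h2bf, Hist1h2ad and Hist1h3d had joined under 1 region.

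**Figure D4:**
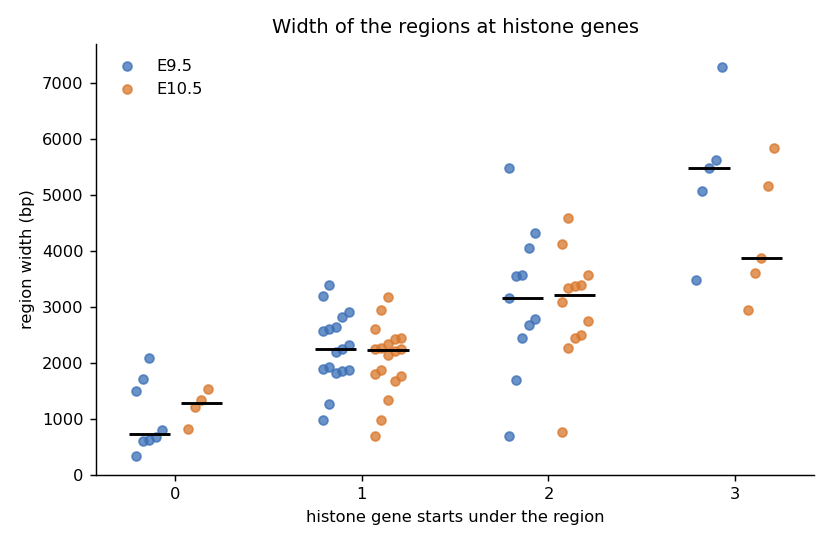
Width in bp of each accessible region at histone genes, by the number of histone gene starts under it, at E9.5 (blue) and E10.5 (orange). Points are regions, black bars are medians, and points are spread sideways only for legibility. Median width went from 2256 bp with 1 start to 5489 bp with 3 at E9.5, and from 2227 to 3867 bp at E10.5. A region over several starts must at least span them.

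The widest region of the group was 7283 bp at E9.5, at chr13:23621552-23628834, over Hist1h4h, Hist1h2af and Hist1h3g, with a score of 3100. The widest at E10.5 stood at the same place, 5832 bp at chr13:23621759-23627590, with a score of 2584. Measured from the start outward, the E9.5 region over a member reached a median of 1498 bp upstream and 1738 bp downstream, and the E10.5 region 1421 bp and 1596 bp. The medians over all protein-coding genes were 700 bp and 948 bp in the E9.5 list, against 644 bp and 823 bp in the E10.5 list. At E9.5 the region reached further downstream than upstream over 4 of 5 H1 genes, 8 of 13 H2A genes, 1 of 15 H2B genes, 3 of 10 H3 genes and 8 of 11 H4 genes, where it did so over 68.6% of all genes. In the E10.5 list this was seen for 5 of 5 H1, 8 of 15 H2A, 4 of 15 H2B, 5 of 11 H3 and 8 of 11 H4 genes, against 63.5%. The H2B genes were the lowest class in both lists. Many of them share their region with a divergent gene on the upstream side. The words around H2B starts were also less unique downstream (median 26.1%) than upstream (64.2%). The part of either in the reach was not tested.

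Between the stages, histone regions ranked higher at E10.5 than at E9.5, while most other promoters did not. Of the 58 members with a region in both lists, the best region ranked higher at E10.5 for 46 (79.3%), and of 13728 protein-coding genes it did for 42.5%. The median difference in percentile was 3.1 points for members, with a range of -43.2 to 20.7, and -1.2 points for all genes. The raw score was higher at E10.5 for 37 of 58 members (63.8%), where 17.7% of all genes had a higher score. Many members share a region, so the independent count is smaller: among 37 distinct pairs of best regions, 29 ranked higher and 22 scored higher at E10.5. With the members at the tied score of 3100 or above left out, 38 of 46 ranked higher, against 41.2% of all genes treated alike.

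The clusters differed. In Hist1, 42 of 46 genes ranked higher and 37 scored higher at E10.5, with a median difference of 3.8 points. The 42 include Hist1h4h and Hist1h2af, which stood at the tied 3100 at E9.5 and whose ranks were 98.0 and 98.1. In Hist2, 2 of 9 ranked higher and 0 scored higher, with a median of -0.2 points. These 2, Hist2h3b and Hist2h2bb, shared a region. Of the 2 Hist3 genes, Hist3h2a ranked higher (83.7 and 86.7) and Hist3h2ba lower (68.0 and 63.1), and both scored lower. Hist4h4 scored 3100 in both lists, and its step from 98.0 to 99.0 comes from the tie alone. The difference between the clusters was not tested, because each list gives 1 value per region and neighbouring genes share regions. By class, 6 of 6 H1, 10 of 15 H2A, 12 of 15 H2B, 8 of 11 H3 and 10 of 11 H4 genes ranked higher.

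**Figure D5:**
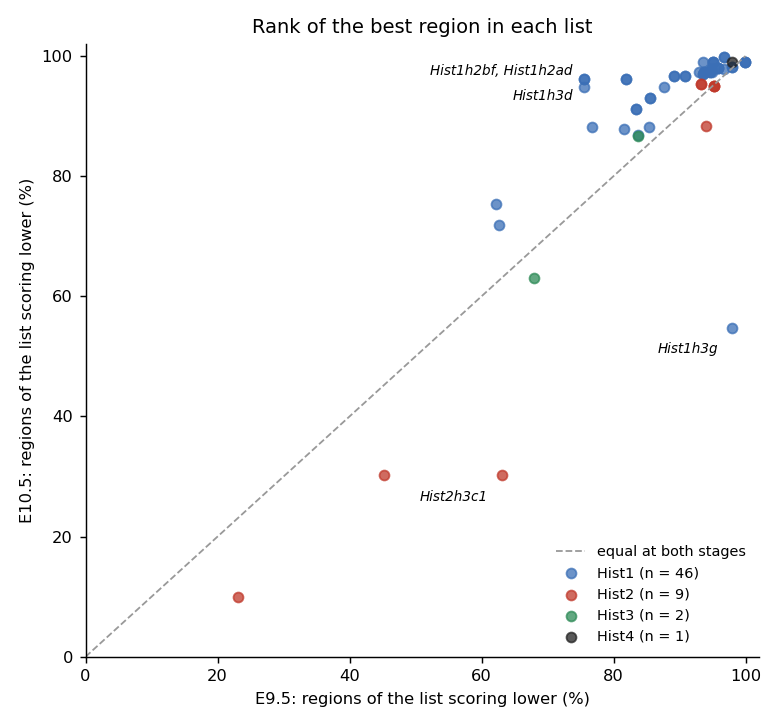
Percent of the regions of each list that score lower than the best region of a histone gene, at E9.5 (horizontal) and E10.5 (vertical), 1 point per gene with a region in both lists, coloured by cluster. The dashed line marks equal ranks. Of the 58 points 46 lie above it, most of them Hist1 genes, and the 5 largest differences are named.

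Of the 5 largest differences in rank, 4 stood where neighbouring regions were joined at one stage and divided at the other. For Hist1h3g the rank went from 98.0 to 54.8 and the score from 3100 to 277. At E10.5 its start still lay under the 5832-bp region of 2584, but the centre of that region was now more than 2.5 kb away, so a small flanking region was counted instead. For Hist1h2bf and Hist1h2ad the rank went from 75.5 to 96.2, and for Hist1h3d from 75.5 to 94.8. At E9.5 this stretch was broken into regions of 698, 1264 and 1708 bp, scoring 802, 503 and 345, and at E10.5 1 region of 3867 bp, scoring 1768 at percentile 94.8, lay over the 3 starts. The 96.2 of Hist1h2bf and Hist1h2ad came instead from the neighbouring E10.5 region of Hist1h2ae and Hist1h2bg, 2453 bp wide with a score of 2043, which was not over their starts. For Hist2h3c1 the rank went from 63.1 to 30.2. Its E9.5 region, 2085 bp wide with a score of 430.2, was centred 1496 bp from an annotated start and had no E10.5 counterpart. The E10.5 region, with a score of 151, was the one at the neighbouring Hist2h2aa1 start. This difference thus compares regions at different places.

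Taking only the region that lies over the start removes this dependence on centres. Of 54 members with such a region in both lists, 45 ranked higher at E10.5 (83.3%, against 42.5% of all genes) and 35 scored higher (64.8%, against 17.1%). In Hist1, 41 of 45 ranked higher and 35 scored higher, and in Hist2, 2 of 6 ranked higher and 0 scored higher. The 41 include Hist1h4h, Hist1h2af and Hist1h3g, under 1 region at the tied 3100 at E9.5, with ranks of 98.0 and 98.1. By class, 4 of 5 H1, 10 of 13 H2A, 12 of 15 H2B, 9 of 10 H3 and 10 of 11 H4 genes ranked higher. Hist1h1t had no region over its start, and Hist1h1a was the H1 gene that ranked lower. Differences now ran from -10.9 points for Hist1h1a to 28.4 for Hist1h3d. The regions became narrower at the same time. Only 11 of the 54 were wider at E10.5 (20.4%), close to the 23.5% of all genes, with a median change of -191.5 bp. Hist1 regions thus scored higher at E10.5 in mostly narrower intervals.

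In order of position, Hist1 falls into a pair of gene blocks on chromosome 13 with Hist1h2al apart. The first block, chr13:21807632-22135545, holds 23 members, of which 17 had a region in both lists and 14 of those ranked higher at E10.5. The second, chr13:23622919-24026720, holds 31 members, of which 29 had a region in both lists and 28 of those ranked higher. Hist1h3g was the exception, for the reason of position given above. The direction was therefore shared along both blocks and did not come from 1 end of the cluster.

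The values behind these counts, given as the score at E9.5 and then at E10.5, ran as follows through the first block. Hist1h2bm scored 2002 and 2297, Hist1h4j 1477 and 1776, and the pair Hist1h2ak and Hist1h2bn 2084 and 2225. The pair Hist1h2an and Hist1h2bp scored 1604 and 2131, and Hist1h4i, Hist1h2ag and Hist1h2bj together 2333 and 3100. Hist1h3i went the other way in score, with 1207 and 1042, but not in rank (83.7 and 86.8). The 3 genes under the 5489-bp region had lower values at E10.5 on both scales, with scores of 3183 and 3100. Both of these scores lie at or above the tied 3100, so this step cannot be read as a fall. In the second block, Hist1h2bh and Hist1h3f shared scores of 1762 and 2113, Hist1h3e had 848 and 1123, and Hist1h2ae and Hist1h2bg had 1106 and 2043. Further along, Hist1h2ac and Hist1h2bc had 2104 and 2328, Hist1h3c and Hist1h2bb 2287 and 2503, and Hist1h2ab and Hist1h3b 1330.2 and 1526. The smallest steps in this block were those of Hist1h4f, with 1089 and 1108, and of Hist1h4a, Hist1h3a and Hist1h1a, with 2508 and 2542. Hist1h4d, with 1320.05 and 1126, and Hist1h1c were lower in score and higher in rank. So were Hist1h4h and Hist1h2af, but these stood at the tied 3100 at E9.5. Their ranks of 98.0 and 98.1 turn on that tie.

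The Hist2 cluster, at chr3:96023839-96082924, was strong at its ends and weak in its middle. Hist2h2ab, Hist2h2ac and Hist2h2be shared a region that scored 2365 at E9.5 and 1811 at E10.5. Hist2h4 scored 2151 and 1137, and Hist2h3b and Hist2h2bb shared scores of 2043 and 1879.8. Between them, Hist2h2aa2 scored 135 and 104, Hist2h2aa1 226 and 151, and Hist2h3c1 430.2 and 151. The 5′-most starts of these 3 genes lie in a second mirrored stretch, 799 bp at chr3:96043617-96044415 and chr3:96049262-96050060 with 1 mismatch (99.87% identity). The genes' shares of unique words were 24.3%, 24.3% and 11.3%. Hist2h3c1 runs on beyond the stretch, to position 96052431, and E9.5 regions covered 44.1% of this gene. At E9.5 regions covered 22.2% of that stretch, and at E10.5 they covered 39.0%. The starts of the 3 genes lay under a region at E10.5 alone, and Hist2h2aa1 and Hist2h3c1, which start side by side, shared that region. Their promoter windows held the most CpG pairs of any members, 45, 45 and 43 in 300 bases, where the median member had 11. These are not 3 separate promoters. The windows of Hist2h2aa1 and Hist2h3c1 largely overlap, and that of Hist2h2aa2 is the mirrored copy. The part of uniqueness in their low scores was not tested.

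Genes of other kinds between the histone genes were not uniformly open. Of 11 protein-coding neighbours inside the blocks, 5 had a region at both stages, against 61.3% of all protein-coding genes. Hfe had one at E9.5 alone, as did 3.75% of all genes. Trim38, Slc17a1, Slc17a2, Slc17a3 and Slc17a4 had none, against 33.8% of all genes. With so few genes, no difference from these shares was tested. Trim17, one of the 5 with a region at both stages, shares its start with Hist3h2a and cannot be told apart from it. Leaving out the 2 neighbours with a start within 5 kb of a histone start, 3 of 9 had a region at both stages. The solute carrier genes stand between the Hist1h1a and Hist1h2aa ends of the second block, and Hist1h1a was the last histone gene of that block with a region.

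The genes that serve the histone genes were open at both stages as well. All 13 genes of a list of histone locus body and 3′ end processing factors had a region in both lists, among them Npat, the cyclin E-CDK2 target that activates histone transcription, and Slbp. Npat scored 2886 at E9.5 and 2779 at E10.5, and Slbp 3216 and 2338. Of the 13, 5 ranked higher at E10.5 and 0 scored higher, with a median difference of -1.3 points. All 7 genes of a list of promoter factors and their kinase, with Hinfp, Pou2f1 and Ccne1 among them, were open at both stages, and 1 ranked higher. All 10 matched genes for replacement and variant histones, such as H3f3a and H2afz, which are made outside S phase as well, were open at both stages, and 4 ranked higher. In none of these 3 lists did a gene score higher at E10.5. Over all protein-coding genes, as given above, 61.3% were open at both stages, and of those 42.5% ranked higher and 17.7% scored higher, so a higher score in the later list was uncommon in general.

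The labelled tissue was checked by its own genes. All 7 limb mesenchyme genes had a region in both lists, and 4 of them ranked higher at E10.5. Prrx1 went from percentile 91.3 to 96.2 and Fgf10 from 92.3 to 97.4, whereas Lmx1b went from 70.3 to 54.3 and Msx1 from 86.7 to 84.1. The best region of Tbx5, a defining forelimb gene, was weak in both lists, with scores of 89.9 and 74.2 at percentiles 4.1 and 1.36. Regions were also listed for the 4 trunk genes Meox1, Tcf15, Pax1 and Pax3 at both stages. Of the 3 ectoderm genes, Sp8 had one at both stages, Fgf8 at E9.5 alone and Trp63 at neither. The scores of Pax3 were 702 and 223, and those of Tcf15 809 and 854. The part of tissue make-up in the rank differences of the histone genes was not tested.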

How the data were processed

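Processing up to the lists was the authors'. Reads were aligned to mm9 with Bowtie 1.1.0, keeping reads with a single place and at most 2 mismatches, and regions were called per replicate with MACS 1.4 without a control or local background. The replicates were merged with MSPC (stringent p-value 1e-10, weak 1e-06). The deposited score takes the lowest p-value that MACS gave to any of the overlapping replicate regions, as 10 times its negative log10, and it is not corrected for depth. This scale was read from the values, which began at 60.52 in the E9.5 list and 60.44 in the E10.5 list.

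Regions were assigned, ranked and overlapped with Python 3.11.15, numpy 2.4.6, pandas 2.3.3 and scipy 1.17.1, and uniqueness was counted with numba 0.67.0. Assignment, overlap and uniqueness counting were tested on simulated data. The word length of 63 bases is the trimmed read length given for the ChIP-seq reads of the same study, to whose section the ATAC-seq methods point. That for the ATAC-seq reads is not given in the sources used here. Blocks were split where members lay over 1 Mb apart, since Hist1h2al would otherwise stretch Hist1. The members and lists were chosen with earlier results of these data known. Genes were named by rule: members with a region at 1 stage or neither, the highest-scoring member of each class and the widest region in each list, members under the region with most starts, the 5 largest rank differences, and list genes without a region. Other members are named where a group is described. H1f0, a pseudogene in this annotation, was not used here. Stem-loops, mirrored copies and 63-base words were read from the mm9 genome. No test was made, since no replicate values are in the lists.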

Additional observations from a re-analysis of the deposited data

How the results depend on the processing

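Counts, medians and percents at members were recomputed under 9 other settings. The reciprocal overlap applies only to the 2 percents of overlapping regions. Leaving out the mirrored genes, taking the region over the start, and all alternatives of the counts of members that scored or ranked higher at E10.5 were chosen after seeing the data. Of 162 recomputed values, 139 stayed within 1.5 times the main count, or within the main value's 95% interval, and 23 did not. With a distance of 1 kb, 5 members had a region in the E9.5 list alone, 3 in the E10.5 list alone and 12 in neither, and with 5 kb 2 had one in the E10.5 list alone. With the higher-scoring 50% of each list, 1 member had a region at E9.5 only and 11 had none. Among the 39 members with at least 50% unique words, 37 had a region at E9.5, at E10.5 and at both stages, 0 at E9.5 only and 2 at neither, 100% of their E9.5 regions had an E10.5 counterpart, and 21 members, all Hist1, scored higher at E10.5, while 30 of 37 ranked higher, 26 of 28 in Hist1. The smaller number of members lowers these counts. With a reciprocal overlap of 50%, 89.7% of E10.5 regions overlapped an E9.5 region. Without the 6 mirrored genes, 0 members had a region at E9.5 only and 3 at neither. By the region over the start, 0 members had an E9.5 region alone, 3 an E10.5 region alone and 10 none, and 100% of E9.5 regions had a counterpart. Distance from the nearest edge and the 5′-most start alone moved no value past these bounds. No replicate could be left out. No paired analysis was possible because the replicates of a stage share 1 merged list without values of their own. Depth is unknown, so a score difference between stages can come from depth.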

Other observations

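The first Hist1 block also held many regions away from any protein-coding start, 23 at E9.5 and 22 at E10.5, with median scores of 299.8 and 309.3. The second block held 4 and 5. After the regions were seen, the 301 bases around each centre were searched on both strands for GGTTCGA, letters of the B box, the internal promoter element of tRNA genes. They stood in 7 of the 23 E9.5 regions (30.4%) and 9 of the 22 E10.5 regions (40.9%), against 0.548% of 26277 and 0.491% of 31376 regions away from starts in the whole lists. In the second block and in Hist2 none of these regions held them. No tRNA annotation was used here, so whether these regions are tRNA genes was not tested.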
